A study of Homo sapiens and Mus musculus with 36 samples.

Results

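EPZ-6438 and MS8815N are EZH2-directed compounds that were given to the mouse B-lymphoma line WEHI-231 and compared here with DMSO and with each other by RNA sequencing. Their libraries were taken by group label and made up 4 of the 36 libraries of the series, or 2 of its 18 groups. Each compound was given at 1 uM for 16 h and had 2 libraries. The DMSO group, the solvent control that all WEHI-231 comparisons share, also had 2 libraries at 16 h. By the labels, EPZ-6438 is an inhibitor of the catalytic SET domain of EZH2, MS8815 is an EZH2 PROTAC, meaning a compound designed so that the cell degrades the protein it binds, and MS8815N is its non-PROTAC control analog. MS8815, with 2 libraries at the same dose and time, is used below only to show where the other compounds differ from it. All groups were the same unmodified line, grown in medium with 2-mercaptoethanol. The rest of the series covers human liver cancer lines and is not described here.

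EZH2 is the catalytic subunit of Polycomb repressive complex PRC2, which places methyl groups on lysine 27 of histone H3 and so helps to keep target genes silent. EED and SUZ12 are its other core subunits, and EZH1 is a related catalytic subunit. In B cells EZH2 is best known from the germinal centre, where it holds back cell cycle inhibitors and plasma cell genes, and activating EZH2 mutations occur in B-cell lymphomas. EPZ-6438, also called tazemetostat, competes with the methyl donor of the enzyme and leaves the EZH2 protein in place. Protein levels and histone marks were not analysed here.

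For these groups the data are the authors' comparison tables, which give for each gene a mean normalized count over the 4 libraries compared, a log2 fold change over DMSO with its standard error (SE), and p-values. Values per library were not analysed here. The level of a gene in each group was instead rebuilt from its mean and fold change, as the mean of the 2 libraries in normalized counts, and carries no replicate spread of its own. Whether the libraries of a group were separate cultures is not stated, and the p-values therefore reflect variation among libraries that may be technical. The mean normalized counts of all genes summed to 21997411 in the EPZ-6438 table, 21193576 in that of MS8815N and 22702602 in that of MS8815. A gene was kept where its mean was at least 10 normalized counts in both the EPZ-6438 and the MS8815N table, which left 13004 genes. All 9 B-cell markers, among them Cd79a and Pax5, had means between 2592 and 52661 normalized counts over the 3 tables. Markers of other cell types were mixed. Of a longer list of 12 T-cell markers 6 were among the kept genes, and in the EPZ-6438 table Lck had a mean of 1542 normalized counts, Cd5 948, Cd8b1 723, Zap70 511, Cd247 285 and Cd2 18.6. Cd3d and Cd3g stayed under a mean of 10, and Cd3e, Cd4 and Cd8a had no value there. Of the 6 T-cell markers on the short list, 3 had a value in the EPZ-6438 table and 2 in that of MS8815N. Of 12 myeloid markers 6 were kept, Adgre1 highest at 223, and of 7 erythroid markers 1 was, Epor at 17.5. None of 4 fibroblast markers and 1 of 3 epithelial markers (Krt18) reached a mean of 10. None of the kept T-cell, myeloid or erythroid markers was called with EPZ-6438 or MS8815N.

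Few genes changed with either compound. With EPZ-6438, 31 of 13004 genes passed an adjusted p under 0.05 in the authors' deposited table (0.238%), 13 of them higher (0.1%) and 18 lower (0.138%). With MS8815N 16 genes passed (0.123%), 5 higher (0.0384%) and 11 lower (0.0846%). With MS8815 1825 of the 10666 genes with an adjusted p passed (17.1%), 566 higher (5.31%) and 1259 lower (11.8%). At an unadjusted p under 0.05 the counts were 403, 316 and 2944 genes (3.10%, 2.43% and 22.6% of the kept genes). The shares of EPZ-6438 and MS8815N lie below what this threshold passes when nothing changes, so these counts show no excess. The median log2 fold change over the kept genes was -0.00 with EPZ-6438, -0.01 with MS8815N and -0.01 with MS8815. All 3 comparisons share the DMSO libraries. For a gene that moved with more than 1 compound, a trait of those DMSO libraries and an effect of the compounds cannot be told apart.

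**Figure D1:**
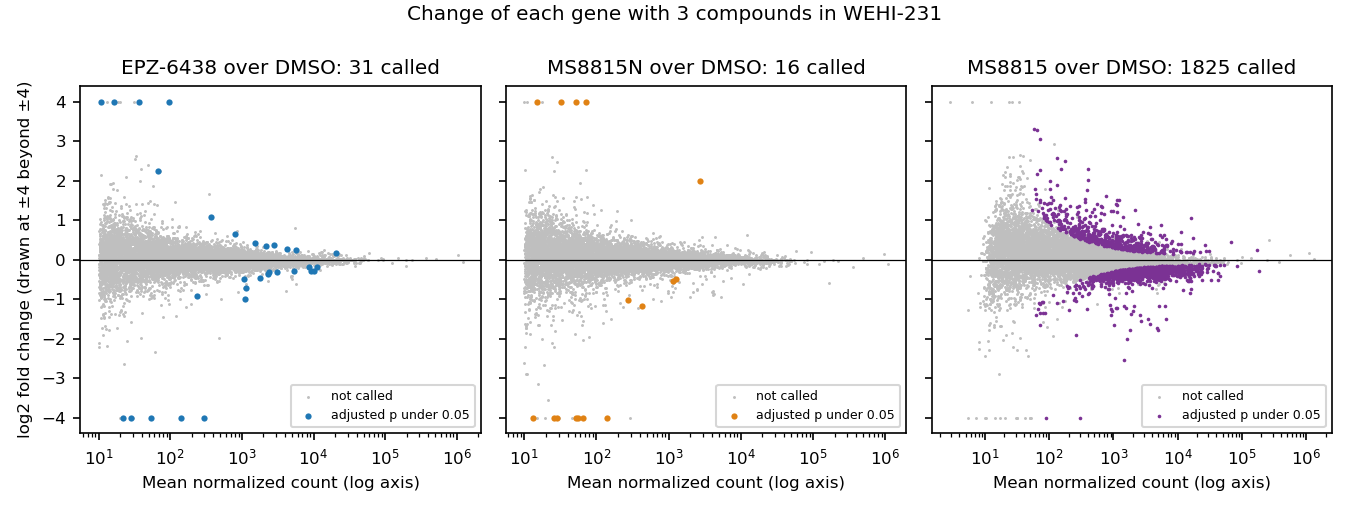
Log2 fold change over DMSO against the mean normalized count (log axis), 1 point per gene, for EPZ-6438, MS8815N and MS8815; values beyond 4 in either direction are drawn at 4, and coloured points have an adjusted p under 0.05. The 31 and 16 coloured genes of EPZ-6438 and MS8815N are scattered, while the 1825 of MS8815 fill both sides of the plot.

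The transcript of the target itself did not pass the test with either compound. Ezh2 had a rebuilt level of 3543 normalized counts in DMSO and 3387 with EPZ-6438, a log2 fold change of -0.07 (95% interval -0.21 to 0.08) from the authors' deposited table. With MS8815N the levels were 3430 and 3237, and the log2 fold change from the authors' deposited table was -0.08 (-0.24 to 0.07). The intervals exclude a change of 1.5-fold in either direction. The difference between both compounds was 0.02 on the log2 scale (-0.19 to 0.23). With MS8815 the authors' deposited table gives -0.24 for Ezh2 (adjusted p = 0.00648).

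None of the 13 PRC2 core and accessory genes was called with EPZ-6438 (median log2 fold change -0.05) or MS8815N (-0.04). Over all genes 0.238% and 0.123% were called, so no call among 13 genes says little by itself. Suz12, a core subunit, was at 4576 normalized counts in DMSO and 4408 with EPZ-6438, and at 4523 and 4313 in the MS8815N comparison. Eed, the subunit that binds the methylated histone tail, had a log2 fold change of -0.30 with EPZ-6438 (-0.80 to 0.19) and -0.22 with MS8815N (-0.70 to 0.25) from the authors' deposited tables, so a change of 1.5-fold lies within both intervals. Ezh1 was at -0.10 and 0.15 in the same 2 deposited tables of the authors. With MS8815, 4 of the 12 PRC2 genes with an adjusted p were lower, against 11.8% of all genes tested (median -0.24 over all 13): Ezh2, Suz12, Rbbp4 and Rbbp7.

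Most genes called with EPZ-6438 were measured in both groups and changed by small amounts. Of its 31 called genes, 22 were measured in both groups, and 16 of those changed by less than 1.5-fold and 2 by at least 2-fold. Lats1, a kinase of the Hippo pathway, fell from a rebuilt 1426 normalized counts in DMSO to 866, or -0.72 on the log2 scale (SE 0.11, adjusted p = 3.7e-07) in the authors' deposited table. Ifngr2, a chain of the interferon gamma receptor, fell from 1239 to 889, or by 0.48 on the log2 scale in the authors' deposited table. It was at -0.40 (-0.63 to -0.17) with MS8815N in the authors' deposited table and was not called there. Kmt2a, a methyltransferase of lysine 4 of histone H3, fell from 5954 to 4869, a change of -0.29 (SE 0.06, adjusted p = 0.000259) in the authors' deposited table.

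Among the other lower genes measured in both groups, Thoc2, a subunit of a messenger RNA export complex, fell by 0.46, and Taf1, a subunit of the general transcription factor TFIID, fell by 0.32 in the authors' deposited table. Eif5b, a translation initiation factor, fell by 0.32 and Mdn1, an ATPase of ribosome assembly, by 0.29 in the same deposited table of the authors. Birc6, a large ubiquitin-conjugating enzyme that restrains apoptosis, fell by 0.28, and Agps, an enzyme of ether lipid synthesis, by 0.36 in the authors' deposited table. The predicted gene Gm24497 fell the most among called genes of at least 100 normalized counts that were measured in both groups, from 1471 to 744 (-0.98, SE 0.13) by the authors' deposited table. Gtdc1 (-0.92), Rprl3 (-0.19) and Tmem123 (-0.18) complete the 13 lower genes in the authors' deposited table. Gm24497 (-1.65), Gtdc1 (-0.85), Agps (-0.39) and Eif5b (-0.23) were also called lower with MS8815 in the authors' deposited table. Birc6 (-0.03) and Ifngr2 (-0.32) were not called there. The limit of the shared DMSO libraries applies to genes that moved with more than 1 compound.

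Among the 9 higher genes measured in both groups were a pair of MHC class II chains, which together form the molecule that presents peptides to helper T cells. H2-Ab1 rose from 2482 normalized counts in DMSO to 3222 with EPZ-6438, or 0.38 on the log2 scale (SE 0.08, adjusted p = 0.000634) in the authors' deposited table. H2-Aa rose from 5155 to 6158, or 0.26 (SE 0.05, adjusted p = 0.00168) in the authors' deposited table. With MS8815N the same genes were at 0.06 and -0.02 in the authors' deposited table and were not called. Scd2, a stearoyl-CoA desaturase, rose from 19292 to 21820 (0.18, adjusted p = 0.006) in the authors' deposited table. Fscn1, an actin-bundling protein, rose by 0.28 and Ece1, an endothelin-converting protease, by 0.66 in the same deposited table of the authors. Tmem104 (1.08), Tmem135 (0.43), Efr3a (0.36) and Lca5 (2.24) were the others in the authors' deposited table, and Lca5 rose from a low level, 23.4 to 110.5. Fscn1 (0.63), Ece1 (0.70), Efr3a (0.28) and H2-Aa (0.20) were also called higher with MS8815 in the authors' deposited table. H2-Ab1 (0.16) was not called there, and Scd2 stood lower, as given below. With MS8815N, Ece1 (0.44) and Efr3a (0.31) did not pass in the authors' deposited table. The limit of the shared DMSO libraries applies to these genes too.

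MS8815N had 6 called genes that were measured in both groups. Lars2, the mitochondrial leucyl-tRNA synthetase, rose from 1086 normalized counts in DMSO to 4356, or 2.00 on the log2 scale (SE 0.11, adjusted p = 9.56e-65) in the authors' deposited table. It was the only 1 of the 6 that was higher. With EPZ-6438 it was at 1035 against 1097 in DMSO, and the authors' deposited tables give -0.08 (-0.33 to 0.17) with EPZ-6438 and -0.16 with MS8815. Transcripts of the mitochondrial ribosomal RNA genes stood lower in the same comparison without passing: the authors' deposited table gives -0.62 (SE 0.27) for mt-Rnr1 and -0.59 (SE 0.21) for mt-Rnr2 with MS8815N. With EPZ-6438 they were at -0.25 and -0.16 in the authors' deposited table. Whether they play a part in the Lars2 value was not tested.

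The 5 lower genes of MS8815N included Rcan1, an inhibitor of the phosphatase calcineurin, which fell from 267.8 to 15.3 (-4.13, SE 0.39) by the authors' deposited table. Zdhhc2, a palmitoyltransferase, fell from 364 to 181, or by 1.01 on the log2 scale in the authors' deposited table. Lats1 fell from 1371 to 939 (-0.55, SE 0.12, adjusted p = 0.00278) in the authors' deposited table. Znrf2, a ubiquitin ligase, fell from 1493 to 1062 and the predicted gene Gm10222 from 598 to 263. Zdhhc2 and Znrf2 were at -0.65 and -0.32 with EPZ-6438 in the authors' deposited table and did not pass there.

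**Figure D2:**
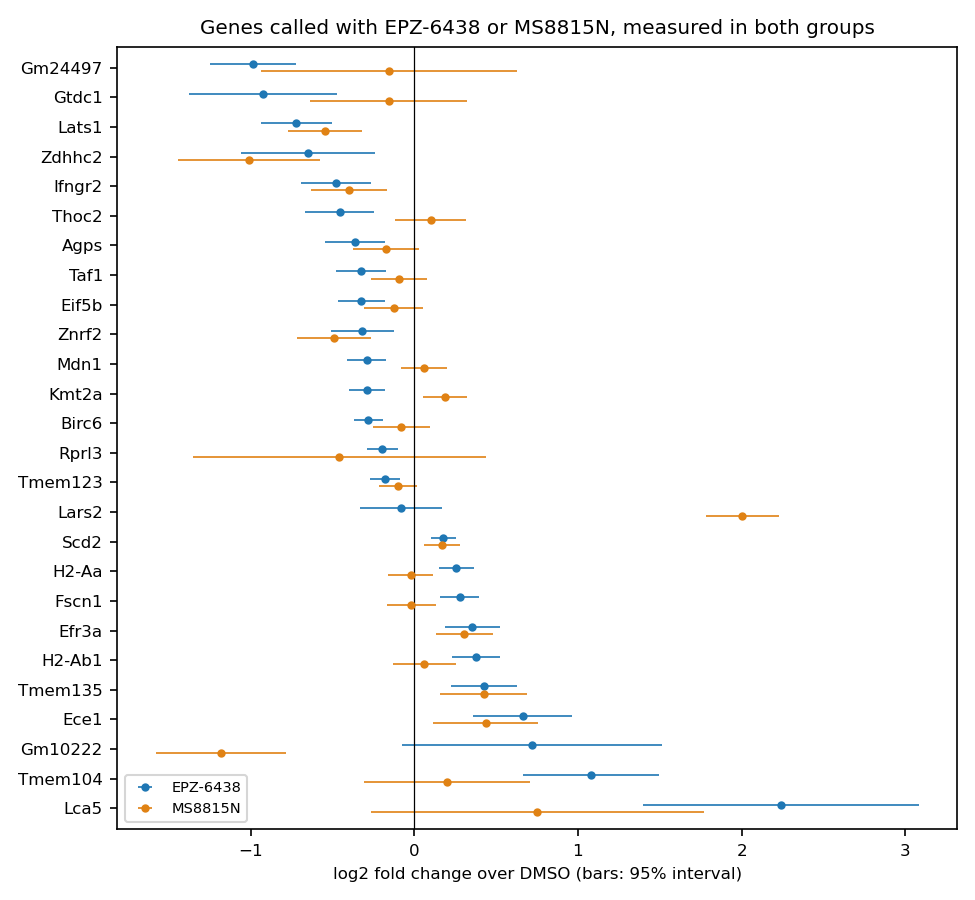
Log2 fold change over DMSO with its 95% interval (horizontal axis) for genes called with EPZ-6438 or MS8815N that were measured in both groups, Rcan1 left out; blue points are EPZ-6438 and orange points MS8815N. Most intervals of the pair overlap, while Lars2 stands at 2.00 with MS8815N and -0.08 with EPZ-6438, and Kmt2a and Gm10222 lie on opposite sides of 0.

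A large share of the calls came from genes that were near 0 in 1 of the groups. This held for 9 of the 31 genes of EPZ-6438 (4 near 0 in DMSO, 5 with the compound) and for 10 of the 16 genes of MS8815N (4 and 6), where near 0 means a rebuilt level under 1 normalized count. Their fold changes carry SEs above 1, so no fold is given for them. Gm28048 went from 582 normalized counts in DMSO to 0.19 with EPZ-6438. With MS8815N it was at 23.3 but was not called, with a log2 fold change of -4.60 (SE 2.65, interval -9.79 to 0.59) from the authors' deposited table. Gm28048 was at 0.18 with MS8815, against 610 in DMSO, and was called there. Arsk, a lysosomal sulfatase, went from 108 to 0.19 with EPZ-6438 and from 106 to 0.19 with MS8815N, while the MS8815 group was at 73.2 with an SE of 3.06 in the authors' deposited table. Rcan1 went from 284 to 0.19 with EPZ-6438, and the MS8815 group was at 186 with an SE of 1.41 in the authors' deposited table. SEs of that size leave those levels imprecise.

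The others followed the same form. In DMSO, Gm6565, Gm43064, Vmn2r52 and Qser1 were near 0, and with EPZ-6438 they were at 72.1, 32.8, 21.1 and 194 normalized counts. With MS8815N, Fam177a, Slc35b2, Gm6361, Gm15452 and Naip1 were near 0, against 129, 113, 55.9, 52.2 and 26.5 in DMSO. Fam177a and Fam177a2 bear the names of a gene and its close copy and moved in opposite directions with MS8815N. Their summed level was 129 in DMSO and 104 with MS8815N, and 132 and 135 in the EPZ-6438 comparison. Values of such near-identical copies are uncertain, and how reads were assigned to them was not tested. Arid5b was near 0 in DMSO and at 144 with MS8815N. Gm6361 and Rnu5g were the remaining genes near 0 with EPZ-6438, from 57.2 and 43.9 in DMSO.

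**Figure D3:**
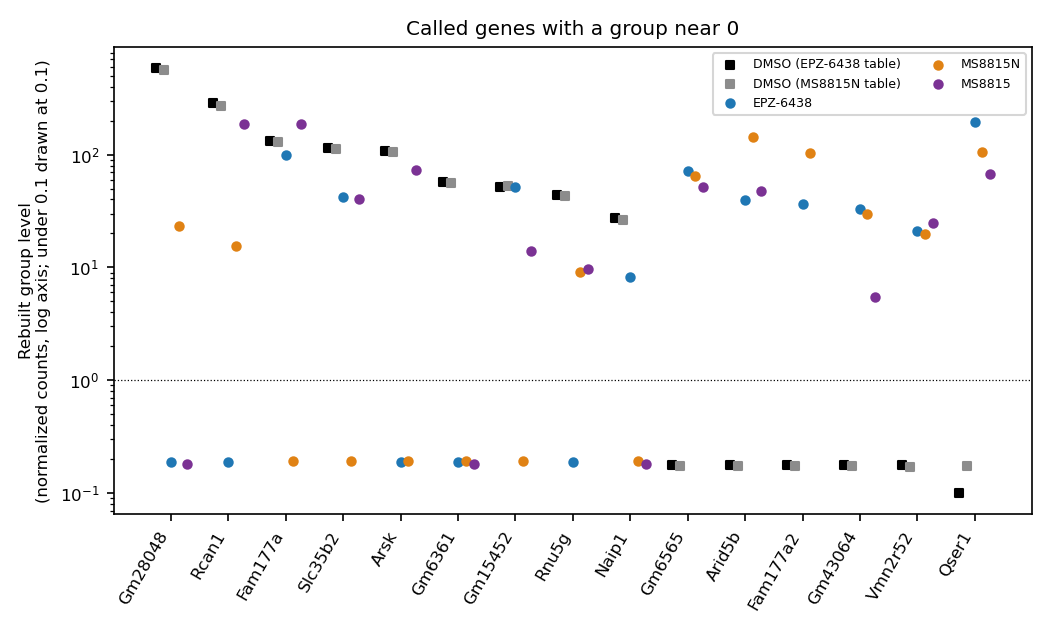
Rebuilt group level in normalized counts (log axis, levels under 0.1 drawn at 0.1) of the called genes with a group near 0; squares are DMSO as rebuilt from the EPZ-6438 and the MS8815N table, circles the 3 compounds, and the dotted line marks 1 normalized count. The DMSO squares of each gene lie close together, except for Qser1, and some compound circles sit near 0.19 while others of the same gene lie well above 1.

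The genes called with both compounds were Lats1, Rcan1, Arsk, Gm6361, Gm6565 and Gm43064. Their calls use the same DMSO libraries. Lats1 is the only 1 of them measured in every group, at 1426 in DMSO and 866 with EPZ-6438, and at 1371 and 939 in the MS8815N comparison. With MS8815 it went from 1439 to 1101, a log2 fold change of -0.39 (adjusted p = 0.048) in the authors' deposited table. The difference between EPZ-6438 and MS8815N for Lats1 was -0.17 (95% interval -0.49 to 0.14).

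The compounds were then compared with each other at the same dose and time, over 3 pairs with MS8815 included. The difference of the log2 fold changes was divided by the root of the summed squared SEs, with a two-sided normal test that rests on the SEs of the authors' fits to 2 libraries a group, adjusted by Benjamini-Hochberg over the genes of all 3 pairs together. EPZ-6438 and MS8815N differed in 10 of 13004 genes (0.0769%), 4 higher (0.0308%) and 6 lower (0.0461%) with EPZ-6438. Adjusted within this pair alone the count was 4 (Lars2, Kmt2a, Fam177a and Gm15452). The other genes of the 10 passed only in the adjustment over all 3 pairs, which the many differences from MS8815 make less strict. Allowing for the covariance of the shared DMSO libraries it was 46 (0.354%), 14 higher (0.108%) and 32 lower (0.246%). At an unadjusted p under 0.05, 95 genes differed (0.731%), or 295 with the covariance (2.27%). Both shares lie below what this threshold passes when nothing differs, so neither shows an excess. The summed squared SEs count the shared DMSO libraries in both comparisons, which makes the SE too large and the first share low in advance. The second share rests on an assumed covariance. Low shares therefore do not show that the compounds act alike.

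The clearest difference was Lars2, at -2.09 for EPZ-6438 minus MS8815N (95% interval -2.42 to -1.75). Kmt2a differed by -0.48 (-0.65 to -0.30): it fell with EPZ-6438, while its rebuilt level was 5331 in DMSO and 6066 with MS8815N. The same DMSO libraries gave Kmt2a a higher rebuilt level in the EPZ-6438 comparison, as listed above. How much of the Kmt2a difference comes from that gap was not tested. Thoc2 (-0.56), Mdn1 (-0.35) and Smg1 (-0.34), the last a kinase of nonsense-mediated decay, also stood lower with EPZ-6438. Gm10222 (1.90) and Gm28437 (0.28) stood higher. Rcan1, Fam177a and Gm15452 differed as well, each with a group near 0. The MHC class II genes did not pass: H2-Aa differed by 0.28 (0.11 to 0.45, adjusted p = 0.0751) and H2-Ab1 by 0.32 (0.07 to 0.56, adjusted p = 0.281), with SEs from the authors' deposited tables. With the covariance, and the same SEs from the authors' deposited tables, both passed at adjusted p = 0.00290 and 0.0296.

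A gene that did not pass is not thereby shown to respond alike, and the intervals say how far the data reach. Of 9369 genes whose mean reached 100 normalized counts in both tables, 8638 (92.2%) had a 95% interval for EPZ-6438 minus MS8815N within 2-fold in either direction, and 6062 (64.7%) within 1.5-fold. Over all 13004 genes 66.5% lay within 2-fold. Against DMSO the intervals lay within 2-fold for 9273 of 9456 such genes (98.1%) with EPZ-6438 and for 9135 of 9401 (97.2%) with MS8815N. For Scd2 the difference between the compounds was 0.01 (-0.13 to 0.14), with a log2 fold change of 0.17 for MS8815N in the authors' deposited table that was not called.

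Gene groups that PRC2 is known to hold silent were examined next. Of 36 genes described elsewhere as PRC2-repressed, 11 were among the kept genes, and none was called with EPZ-6438 or MS8815N (median log2 fold change 0.06 with each). Over all genes 0.238% were called with EPZ-6438 and 0.123% with MS8815N, so no call in lists this short says little about them. The rest of the 36 did not reach the mean minimum in both comparisons, so changes in the most silent of them were not counted. Cdkn2a, a cell cycle inhibitor and classical PRC2 target, was at 8.66 normalized counts in DMSO and 21.9 with EPZ-6438, and its log2 fold change of 1.34 in the authors' deposited table had an interval from -0.39 to 3.06. With MS8815N it was at 8.35 and 13.5. Cdkn1a, a cell cycle inhibitor, was at 302 and 311 with EPZ-6438 and at 291 and 223 with MS8815N. At such low levels the depth cannot show a change of 2-fold for Cdkn2a. Of 39 HOX genes, which pattern the body axis, 13 were kept and none was called, with medians of 0.12 and -0.04. Hoxc4, the most abundant, was at 992 and 952 with EPZ-6438 and at 966 and 862 with MS8815N.

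No gene of the B-cell or plasma cell lists passed the test against DMSO with either compound. Over all genes 0.238% were called with EPZ-6438 and 0.123% with MS8815N, shares at which lists of this size would seldom hold a called gene. None of 33 B-cell identity genes was called with EPZ-6438 (median -0.02) or MS8815N (-0.02), against 2 higher and 10 lower of 32 tested with MS8815, where 5.31% of all genes were higher and 11.8% lower. Pax5, which keeps the B-cell fate, was at 23275 normalized counts in DMSO and 21526 with EPZ-6438. For EPZ-6438 minus MS8815N, 0 of the 33 differed. With the covariance 2 stood lower with EPZ-6438, Pax5 (-0.17) and Pou2f2 (-0.25), where 0.246% of all genes were lower. Of 13 plasma cell genes none was called with either (medians -0.03 and 0.04), against 4 higher of 12 tested with MS8815 (5.31% of all genes). Irf4, which drives plasma cell formation, had a log2 fold change of -0.13 (-0.24 to -0.01) with EPZ-6438 and -0.01 with MS8815N in the authors' deposited tables. Bcl6, the germinal centre repressor, was low, at 19.8 and 41.0 with EPZ-6438.

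The MHC class II list had 2 of 14 genes higher with EPZ-6438 (H2-Aa and H2-Ab1, median 0.10), none with MS8815N (0.02) and 2 higher with MS8815 (0.12). The 2 with MS8815 were H2-Aa (0.20) and Ciita (0.49) in the authors' deposited table. H2-Ab1 (0.16) was not called with MS8815 there. Over all genes 0.1% were called higher with EPZ-6438, 0.0384% with MS8815N and 5.31% with MS8815. Ciita, the master regulator of these genes, was at 907 normalized counts in DMSO and 1098 with EPZ-6438, and the authors' deposited table gives 0.28 (0.05 to 0.50), which was not called. Ciita with MS8815N was at 0.11 (-0.15 to 0.37) in the authors' deposited table. H2-Eb1 was at 249 and 336 with EPZ-6438 and at 241 and 258 with MS8815N. Cd74, the invariant chain, was at 48842 and 51772 with EPZ-6438.

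Over 29 gene lists with at least 5 kept members, 3 held a called gene with EPZ-6438, none with MS8815N and 28 with MS8815. These counts of lists are to be read against the shares of all genes called, 0.238%, 0.123% and 17.1%, and do not by themselves single out any list. The 3 were the MHC class II list, fatty acid synthesis (Scd2, 1 of 15) and histone and DNA methylation enzymes other than PRC2 (Kmt2a, 1 of 21). List medians ran from -0.07 to 0.12 with EPZ-6438, from -0.12 to 0.08 with MS8815N and from -1.28 to 0.54 with MS8815.

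**Figure D4:**
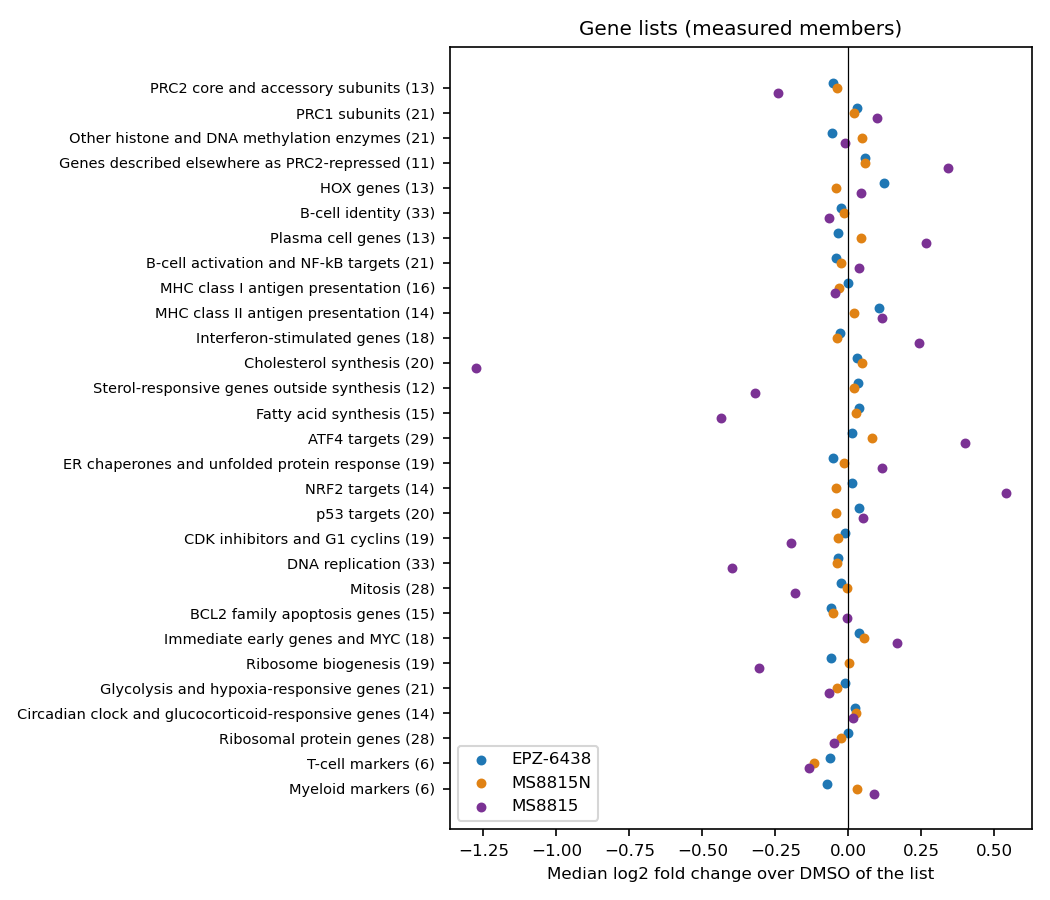
Median log2 fold change over DMSO (horizontal axis) of the 29 gene lists, number of measured members in brackets; blue EPZ-6438, orange MS8815N, purple MS8815. Blue and orange points lie between -0.12 and 0.12, and purple points reach -1.28 (cholesterol synthesis) and 0.54 (NRF2 targets).

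Cholesterol synthesis genes showed the contrast with MS8815 most plainly. Hmgcs1, which makes HMG-CoA for the mevalonate pathway, was at 7262 normalized counts in DMSO and 7280 with EPZ-6438. With MS8815N it was at 7075 and 7305, and with MS8815 at 7617 and 2199. None of 20 genes of the pathway was called with EPZ-6438 (median 0.03) or MS8815N (0.05), and 19 were lower with MS8815 (median -1.28), against 11.8% of all genes. Every interval of the 20 genes lay between -0.62 and 0.63 with EPZ-6438 and between -0.50 and 0.53 with MS8815N. Lss, which closes the sterol ring, had differences of -2.66 (-3.21 to -2.11) for MS8815 minus EPZ-6438 and -2.75 (-3.05 to -2.45) for MS8815 minus MS8815N. In each of these pairs 18 of the 20 genes differed, with medians of -1.35 and -1.38. Acat2, an early enzyme of the route, had the highest values with both other compounds, 0.27 (0.04 to 0.49) and 0.31 (0.10 to 0.53) by the authors' deposited tables; neither passed.

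**Figure D5:**
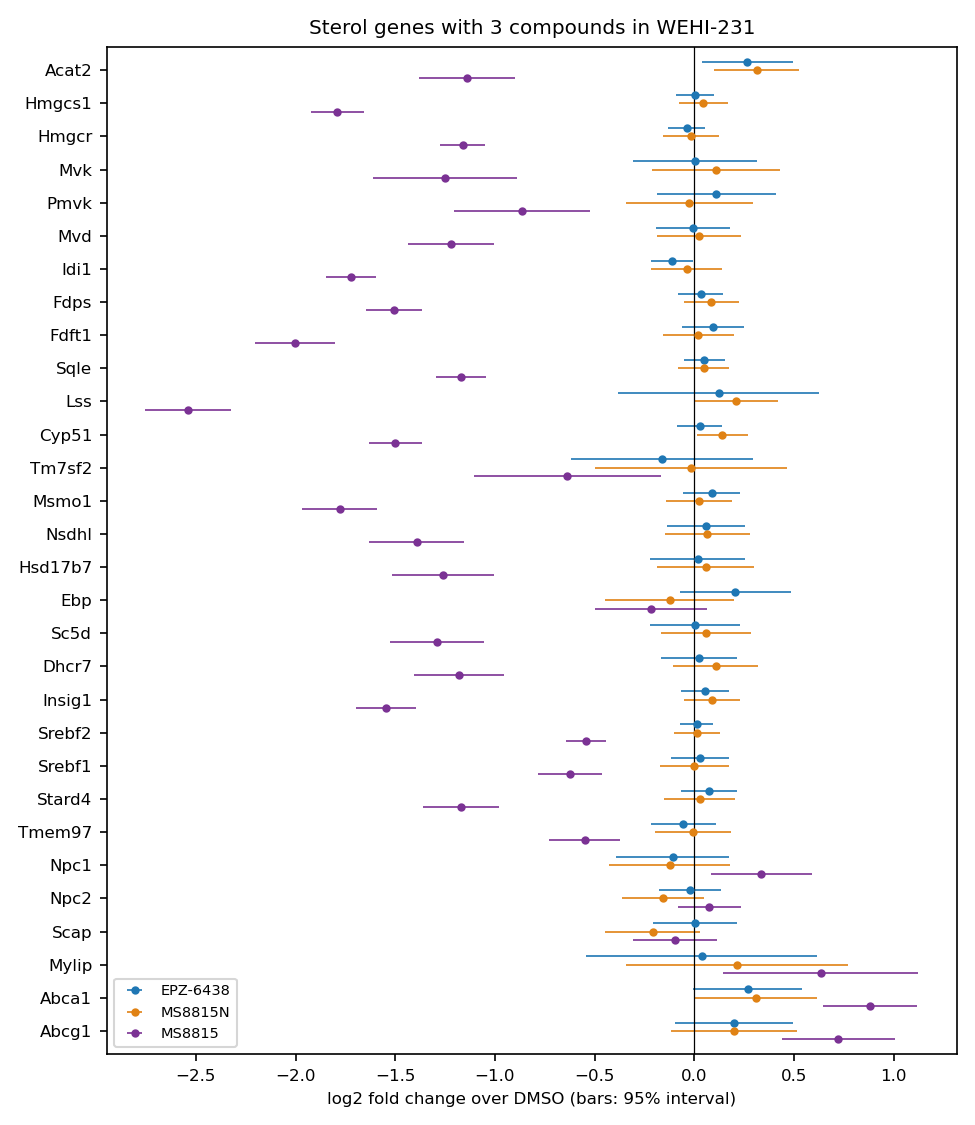
Log2 fold change over DMSO with its 95% interval (horizontal axis) for 19 cholesterol synthesis genes (upper rows) and 11 other sterol-responsive genes (lower rows, from Insig1 on); blue EPZ-6438, orange MS8815N, purple MS8815. Blue and orange points stay close to 0, and 18 of the 19 purple synthesis genes drawn were called lower, Lss furthest at -2.54.

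Over all genes, MS8815 differed from EPZ-6438 in 445 of 13096 genes (3.4%), 125 higher (0.954%) and 320 lower (2.44%) with MS8815. It differed from MS8815N in 311 of 13092 (2.38%), 80 higher (0.611%) and 231 lower (1.76%). With the covariance MS8815 differed from EPZ-6438 in 1103 genes (8.42%), 305 higher (2.33%) and 798 lower (6.09%), and from MS8815N in 893 (6.82%), 249 higher (1.9%) and 644 lower (4.92%). Among targets of ATF4, which switches on genes for amino acid supply under stress, 13 of 29 were higher with MS8815 than with EPZ-6438 and 7 were higher than with MS8815N. With the covariance these counts were 20 and 12, each beside 1 lower gene. None of the 29 was called with EPZ-6438 or MS8815N against DMSO, where 0.238% and 0.123% of all genes were called. Log2 fold changes of the list were above 0 for 16 of the 29 with EPZ-6438 (median 0.01) and for 22 with MS8815N (median 0.08). Ddit3, which encodes the stress factor CHOP, was at 166 and 157 with EPZ-6438, at 159 and 179 with MS8815N and at 175 and 590 with MS8815. Trib3, a target of CHOP, was at 127 and 140 with EPZ-6438, at 131 and 175 with MS8815N and at 133 and 655 with MS8815. Of 33 DNA replication genes 11 were lower with MS8815 than with EPZ-6438 and 12 lower than with MS8815N (22 and 21 with the covariance), while none was called with EPZ-6438 or MS8815N against DMSO. Mcm2, part of the replicative helicase, was at -0.04 with EPZ-6438, -0.07 with MS8815N and -0.49 with MS8815 in the authors' deposited tables. Scd2, which rose with EPZ-6438, went from 20230 to 11197 with MS8815.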

How the data were processed

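RNA from WEHI-231 cells was sequenced. Per the labels' protocols the library kit was either TruSeq v2 or NEBNext Ultra II, with no assignment to single libraries. STAR 2.4.2, Salmon and the builds GRCh38 and mm10 are named in the submitters' processing notes. Strand settings: not given in the sources used here. Per the file headers, the deposited tables hold a mean normalized signal, a log2 fold change, its SE, a score (the test statistic) and a p-value with an adjusted p-value for each gene. That the statistic is the fold change over its error, and that the adjustment is Benjamini-Hochberg, was checked. Replicates were not analysed singly, so depth per library is unknown.

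Group levels were rebuilt as 2 times the mean divided by 1 plus the linear fold change for DMSO, and the remainder for the compound. DMSO levels rebuilt from the EPZ-6438 and MS8815N tables differed between genes by an interquartile range of 0.0235 (log2) as deposited and 0.133 with 1 sign turned. Some genes lay further apart: Gtdc1 in DMSO was rebuilt at 307 normalized counts in the EPZ-6438 comparison and at 235 in that of MS8815N. Differences between compounds are described beside their results (Python 3.11.15, SciPy 1.17.1). Tested on simulated data for EPZ-6438 minus MS8815N (12971 genes), that step found 77 of 100 seeded 2-fold changes, all 100 seeded 4-fold changes and 0 others, and with the covariance 93, 100 and 4. The seeded genes had means of at least 100 in all 3 comparisons, so recovery at lower levels was not tested. Simulated errors were normal, with the deposited SEs and a DMSO share of 0.5, as the step and its covariance alternative assume. The few other calls therefore do not show how the step fares where those assumptions fail. The covariance alternative subtracts the squared error that shared DMSO libraries would contribute, taken as 0.5 of the smaller one. Other alternatives were the p threshold, mean minimum, fold minimum, centring and adjustment.

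The members, and the 34 gene lists, were chosen with earlier results of these data known. Genes named were Ezh2 and the core PRC2 genes, up to 8 highest and 8 lowest called genes above a mean of 100, genes called with both compounds, up to 4 called members of each list or its 2 most abundant, and up to 5 differences each way from MS8815. Further called genes and list members were added after their values were seen. No mouse genome was used, so no coordinates or promoter sequences are given. Some genes are not reported here or drawn, but stay in the counts and medians of their lists.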

Additional observations from a re-analysis of the deposited data

How the results depend on the processing

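No paired analysis was possible because the deposited tables used hold no values per library, and for the same reason no replicate could be left out. Promoter base composition was not run. With a 1.5-fold minimum EPZ-6438 had 15 called genes. MS8815N had 6 at a mean of at least 100, and 6 without genes under 1 in a group, an alternative chosen after seeing the data. The EPZ-6438 minus MS8815N count was 16 at an adjusted p under 0.1, 5 with a 1.5-fold minimum, 46 with the covariance and 4 adjusted within the pair. MS8815 minus EPZ-6438 gave 287 at an adjusted p under 0.01, 115 with a 1.5-fold minimum (62 higher, 53 lower, against 125 and 320 without it) and 1103 with the covariance. MS8815 minus MS8815N gave 199, 104 (51 higher, 53 lower, against 80 and 231) and 893. After centring, the 31 genes called with EPZ-6438 and the 16 with MS8815N were still called, and the totals were 32 and 17. A further 36 genes passed for EPZ-6438 minus MS8815N only with the covariance. Low levels limit what the tables can show: over all 13004 genes, 74.9% of intervals for EPZ-6438 and 73.5% for MS8815N lay within 2-fold.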

Other observations

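Mitochondrial ribosomal RNA had values on both sides of 0 among the compounds. The authors' deposited tables give mt-Rnr1 at -0.25 (SE 0.20) with EPZ-6438, -0.62 (SE 0.27) with MS8815N and 0.55 (SE 0.19, adjusted p = 0.0240) with MS8815. Some genes outside the 13004 were called too in the authors' deposited tables: Cradd, Csf2ra, D130020L05Rik, Gm14137 and Gm49388 were higher with EPZ-6438, and Lonrf1, Rpl27-ps3 and Rps6ka5 with MS8815N. Each of these was near 0 in DMSO.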
